A study of Mus musculus with 12 samples.

Results

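In mouse embryos that overexpress p18, the ventricular zone of the dorsal cortex was compared at E16.5 with E13.5, both embryonic days. The comparison took the 3 libraries labelled p18mKO2+ at E16.5 and the 3 labelled p18mKO2+ at E13.5, chosen by their titles, out of 12 libraries in the series, and it covered all genes: 16798 passed a filter on low counts and were tested, of 55487 gene identifiers in the deposited tables. The mice carried p18-P2A-mKO2 behind a loxP-flanked stop in the ROSA26 locus. P2A separates the cyclin-dependent kinase inhibitor p18 from mKO2, an orange fluorescent protein. Tamoxifen, injected into the peritoneum to induce Cre recombination, is labelled for all groups, p18mKO2- included. The labels used here do not give the Cre driver, the day of injection or the share of recombined cells. The p18mKO2- libraries, 3 per stage and labelled as normal genotype, stand beside the p18mKO2+ values as the same stage comparison. The tissue was cut out by laser microdissection, and polyadenylated RNA was sequenced in directional libraries. The series asked what links inhibitors of cyclin-dependent kinases to the change from making neurons to making astrocytes.

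Radial glia, the progenitors of the cortex, have their cell bodies in the ventricular zone, beside the lateral ventricle. Radial glia give rise to neurons of the deep layers first and of the upper layers later, partly through intermediate progenitors, and produce astrocytes near the end of embryonic life. p18, the product of Cdkn2c, binds CDK4 and CDK6 and holds retinoblastoma proteins active, which keeps genes of DNA replication and mitosis repressed.

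Counts of Cdkn2c, the gene whose product was overexpressed, did not separate the stages. As CPM, counts scaled to a common library size, they were 22.9, 32.6 and 21.6 in the E13.5 p18mKO2+ libraries and 30.2, 30.95 and 25.8 at E16.5. The groups overlapped, and the log2 change from E13.5 to E16.5 was 0.17 ± 0.26 (SE; edgeR quasi-likelihood test, Benjamini-Hochberg adjusted p = 0.838; exact two-sided permutation p of CPM = 0.4). The authors' TPM of Cdkn2c averaged 30.2 ± 2.48 at E13.5 and 38.0 ± 5.73 at E16.5 (SD, n = 3 each; exact permutation p = 0.2). With 3 libraries against 3 the exact p cannot go below 0.1. Mean CPM in p18mKO2+ was 25.7 ± 6.0 at the earlier and 29.0 ± 2.76 at the later stage, and 23.3 ± 5.08 and 23.1 ± 8.36 in p18mKO2- (SD, n = 3 each). In CPM the p18mKO2+ and p18mKO2- libraries overlapped at each stage (exact permutation test, two-sided, p = 0.7 for the E13.5 libraries and 0.4 for those of E16.5). In the authors' TPM, which also account for transcript length, p18mKO2- averaged 21.3 ± 5.25 at E13.5 and 20.6 ± 7.56 at E16.5 (SD, n = 3 each). Every p18mKO2+ library was above every p18mKO2- library of its stage in TPM (exact permutation p = 0.1 at each stage), the direction the labels give. The gap between the genotypes in Cdkn2c thus depended on the unit. Whether transcripts of the transgene were counted under Cdkn2c was not tested.

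Total estimated counts lay between 18794141 and 21837090 in the 6 p18mKO2+ libraries, with a lowest total of 17101953 over all 12. Markers of dorsal radial glia were present at both stages: Pax6 had a median of 138 CPM at E13.5 and 112 CPM at E16.5, and Sox2 120 and 98.4 CPM. Transcripts of neurons were abundant in the same libraries (Dcx, median 1187 and 1593 CPM). In bulk tissue, a change in the number of cells of a type and a change in RNA per cell cannot be told apart. Some libraries stood apart. E13.5 replicate 3 and E16.5 replicate 3 held both the X-inactivation transcript Xist (1246 and 656 CPM) and transcripts of 4 Y-linked genes (88.9 and 81.7 CPM), whereas E13.5 replicate 1 held Xist alone and the other p18mKO2+ libraries the Y-linked genes with Xist at no more than 9.82 CPM. In p18mKO2- the 3 E13.5 libraries and E16.5 replicates 1 and 3 held Xist, with the Y-linked genes at no more than 0.415 CPM. E16.5 p18mKO2- replicate 2 held the Y-linked genes (168 CPM), so sex was not balanced over the groups. Mitochondrial genes gave 8.28% of counts in E16.5 p18mKO2- replicate 3 and 3.18 to 4.53% in the other libraries. Choroid plexus transcripts also varied in p18mKO2+, with Ttr between 16.1 and 631 CPM at E13.5 and between 300.1 and 1376 CPM at E16.5. Since no label ties a replicate to its own embryo or litter, the spread that the p-values rest on is that between libraries and may in part be technical.

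Most genes that changed with stage in p18mKO2+ were called in the same direction in p18mKO2-, where many more genes were called. A gene was called at an adjusted p under 0.05 over all 16798 genes. In p18mKO2+ 275 genes were called, 1.64% of those tested: 182 were higher at E16.5 (1.08%) and 93 lower (0.554%). Before adjustment, 2486 genes had a p under 0.05. In p18mKO2- 5005 genes were called, 29.8% of those tested. The 2 comparisons share no library. Of the 275 genes, 269 were called in the same direction in p18mKO2-, which is 97.8% of the p18mKO2+ genes and 5.37% of the p18mKO2- genes, and 0 in the opposite one. Signs were the same in both comparisons for 273 of the 275 and for 74% of all genes tested. All 275 had p18mKO2+ libraries that did not overlap between stages, which was so for 26.6% of all genes.

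The changes of these genes were mostly smaller with p18 overexpression. The 182 genes called higher had a median log2 change of 1.197 in p18mKO2+ and 2.36 in p18mKO2-, and the 93 called lower had medians of -0.93 and -1.56. The medians over all genes tested were -0.03 and -0.02. The fitted change was larger in p18mKO2- for 247 of the 275. The difference between the stage changes was tested for each gene as an interaction term, which called 453 of all genes tested (2.7%), 50 more positive in p18mKO2+ and 403 more negative. Among the 182 genes called higher, 79 rose by less in p18mKO2+ and 0 by more. Among the 93 called lower, 11 fell by less, and 1, Dcc, had a more negative change than in p18mKO2-, where it was not called. The mean of E13.5 p18mKO2+ lay between the E13.5 and E16.5 means of p18mKO2- for 253 of the 275 genes (92%, against 60.1% of all genes tested). At E16.5 the p18mKO2+ and p18mKO2- libraries overlapped for 236 of the 275, or 85.8% (all genes tested, 92.1%), and at E13.5 for 64, or 23.3% (all genes tested, 69.3%).

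**Figure D1:**
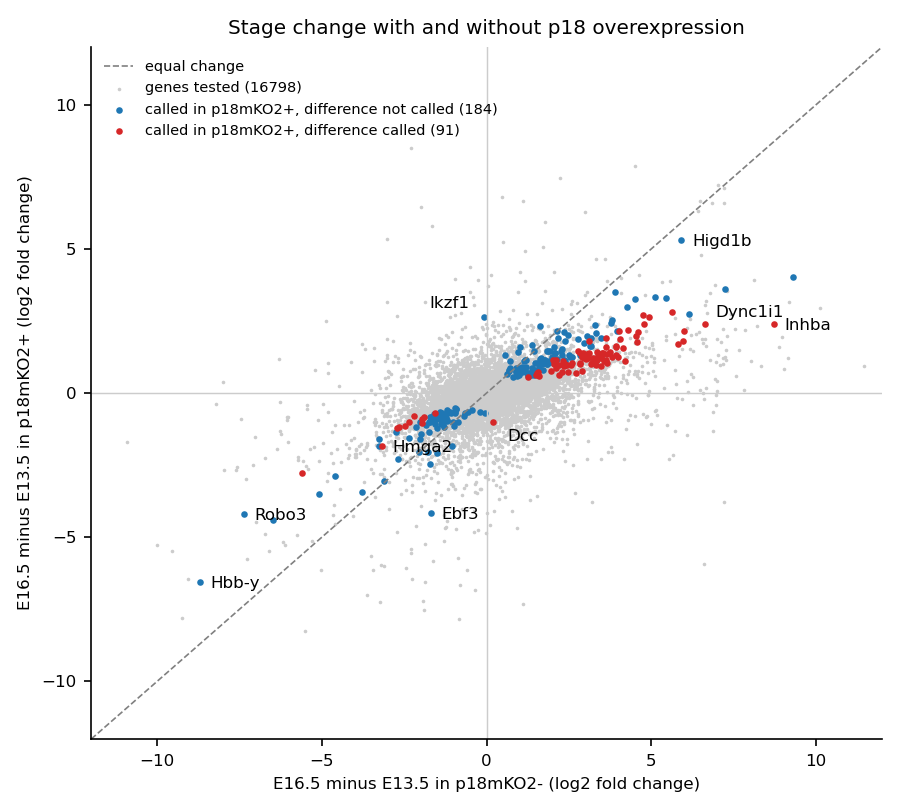
Log2 change from E13.5 to E16.5 of each of 16798 genes in p18mKO2- (horizontal axis) and in p18mKO2+ (vertical axis), with the line of equal change dashed. Points in color are the 275 genes called in p18mKO2+, red where the difference between the 2 changes was also called (91 genes). Most colored points lie between the horizontal axis line and the dashed line, where the change is smaller in p18mKO2+.

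The counts changed widely when single libraries were left out. Fewer libraries also make the test weaker, so a lower count alone does not show that the calls rested on that library. Without E13.5 p18mKO2+ replicate 1, 2 or 3 the 275 became 116, 150 or 366. Without E16.5 p18mKO2+ replicate 1, 2 or 3 it became 76, 160 or 115. Without E13.5 p18mKO2- replicate 1 it became 216, with 199 of them among the 275. Without E16.5 p18mKO2- replicate 2 it became 199, with 189 of them among the 275. Without E16.5 p18mKO2- replicate 3 it became 573. Each fit with a library left out tested more than 16798 genes, with 17487 in the fit that gave 573 and 17485 in the fit that gave 199. The share of counts from a ribosomal RNA gene, CT010467.1, was 2.81 to 6.64% in the E13.5 and 1.79 to 3.97% in the E16.5 p18mKO2+ libraries. In p18mKO2- it was 5.32 to 8.80% at E13.5 and 6.28 to 13.6% at E16.5. At E16.5 every p18mKO2- library was thus above every p18mKO2+ library. With the level of that gene as a covariate, 206 genes were called, 140 of them among the 275. For the 453 genes with a called difference, leaving out E13.5 p18mKO2- replicate 2 gave 246, E13.5 p18mKO2+ replicate 1 gave 200, and the E16.5 p18mKO2+ replicates in turn gave 225, 124 and 179. Of the 63 called genes among those chosen for description, 27 kept their call without any 1 of the 6 p18mKO2+ libraries and 36 did not. Calls of single genes were not followed with 1 p18mKO2- library left out.

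Genes of upper-layer neurons made up the list with the most members called. The shares to set beside each list are those over all genes tested, 1.08% called higher and 0.554% called lower. Of 16 such genes tested, 8 rose and 0 fell, with a median log2 change of 1.07 in p18mKO2+ and 2.31 in p18mKO2-. Mef2c, an activity-regulated transcription factor, had 72.7, 72.3 and 68.7 CPM at E13.5 and 331, 237 and 361 CPM at E16.5. Its E13.5 libraries were nearly level and its E16.5 libraries were all several times higher (log2 change 2.12 ± 0.26, SE; edgeR adjusted p = 0.00128), against a change of 4.60 ± 0.29 in p18mKO2-. Pou3f2, a POU factor of late progenitors and upper-layer neurons, went from 189, 227 and 175 CPM to 514, 477 and 546 CPM without overlap (1.38 ± 0.19, adjusted p = 0.00207). Cux2, a homeobox gene of upper layers and their progenitors, went from 72.7, 91.5 and 102 CPM to 219, 175 and 198 CPM, again without overlap (1.15 ± 0.16, adjusted p = 0.00302). These 3 genes kept their calls without any 1 p18mKO2+ library.

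Inhba, Pou3f1, Pou3f3 and Unc5d of the same list also rose. Inhba, a subunit of activin, stood at 4.22, 5.71 and 4.40 CPM at E13.5 and at 30.8, 23.0 and 21.7 CPM at E16.5, with all E16.5 libraries above all E13.5 libraries. Its log2 change of 2.40 ± 0.43 (adjusted p = 0.0121) lost its call without E13.5 replicate 1 or E16.5 replicate 1 (highest adjusted p = 0.0627). Pou3f1, Pou3f3 and the netrin receptor gene Unc5d, listed here after their values were seen, had log2 changes of 1.26, 0.72 and 1.06. For 6 of the 16 genes the stage change was more negative in p18mKO2+ than in p18mKO2- by the interaction test, among them Mef2c (difference -2.47 ± 0.37, adjusted p = 0.00319) and Inhba (-6.34 ± 0.87, adjusted p = 0.00212). Inhba had only 3 counts over the E13.5 p18mKO2- libraries, so the size of its difference depends on the prior count of the fit. Without E16.5 replicate 1 or 3 the list had 4 or 5 members called instead of 8, and 4 without both libraries that held transcripts of both sexes.

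General neuronal genes changed less. Of 18 pan-neuronal genes, 2 rose and 0 fell, with a median log2 change of 0.37 in p18mKO2+ against 1.52 in p18mKO2-, where 16 rose. Rbfox1, a neuronal splicing regulator, stood at 47.5, 43.9 and 57.0 CPM at E13.5 and at 134, 111 and 124 CPM at E16.5. Its groups were well apart, and it kept its call without any 1 p18mKO2+ library (1.31 ± 0.21, adjusted p = 0.00662). Its difference from p18mKO2- was -2.60 ± 0.31 (adjusted p = 0.000637). Mapt, which encodes the microtubule-associated protein tau, had 433, 275 and 708 CPM at E13.5 and 1179, 961 and 1212 CPM at E16.5. E13.5 replicate 3 came nearest to the E16.5 libraries, and the call of Mapt (1.24 ± 0.28, adjusted p = 0.0422) was lost without any 1 of the other 5 libraries (highest adjusted p = 0.153). The list had 4 members called without E13.5 replicate 3 and 1 without any other p18mKO2+ library. Dcx, a microtubule-associated protein of migrating neurons, was at 1187, 1016 and 1218 CPM at E13.5 and at 1713, 1593 and 1405 CPM at E16.5. Its groups did not overlap, but its log2 change of 0.46 ± 0.15 was not called (adjusted p = 0.152), while it was 1.99 ± 0.16 in p18mKO2- and the difference was called (-1.53 ± 0.22, adjusted p = 0.00241). Summed over the 18 genes, the level lay between 5444 and 8506 CPM at E13.5 and between 8569 and 9487 CPM at E16.5. The sums of the stages thus did not overlap, by a narrow margin. The part of neuronal transcripts in the upper-layer values was not tested.

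Few of the listed deep-layer and subplate genes passed the test. Of 15 such genes, 1 rose and 0 fell, while 5 were higher and 0 lower at an unadjusted p under 0.05, and DESeq2 called 5 higher. Changes lay above 0 for 9 and below 0 for 6, with a median log2 change of 0.03 in p18mKO2+ and 1.11 in p18mKO2-. The member that rose, Hs3st4, encodes a heparan sulfate sulfotransferase and stood at 18.2, 24.0 and 26.8 CPM at E13.5 and at 67.8, 57.5 and 99.4 CPM at E16.5. The groups did not overlap (1.70 ± 0.32, adjusted p = 0.0164), and the call was lost without E13.5 replicate 1 or 2 or E16.5 replicate 3 (highest adjusted p = 0.0769). Its change was smaller than in p18mKO2- by -4.10 ± 0.49 (adjusted p = 0.000668). Of the 15 genes, 7 had a more negative stage change in p18mKO2+ than in p18mKO2-. Ntsr1, a gene of corticothalamic neurons that was not chosen through this list, rose as well (2.72 ± 0.24, adjusted p = 0.000243).

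Single members of the synapse, receptor, adhesion and guidance lists rose. Over all genes tested, 1.08% were called higher and 0.554% lower. Here and in later lists, a single call describes that gene and is not read as a result about its list. Of 20 synaptic vesicle genes 1 rose, Cplx1, which regulates vesicle fusion (0.99 ± 0.18, adjusted p = 0.0161), with a list median of 0.35 against 1.51 in p18mKO2-. Of 29 glutamate and GABA receptor genes 1 rose, Grin2b, a subunit of the NMDA receptor (1.24 ± 0.28, adjusted p = 0.0478), with medians of 0.30 and 1.72. Of 23 cadherin genes 3 rose, Cdh12, Cdh8 and Cdh4, with medians of 0.30 and 1.42. Cdh12 went from 4.75, 3.38 and 6.23 CPM at E13.5 to 20.9, 12.8 and 16.3 CPM at E16.5, and its lowest E16.5 library was above 2 times the highest at E13.5 (1.80 ± 0.28, adjusted p = 0.00580). It kept its call without any 1 p18mKO2+ library. Cdh8, Cdh4, Cplx1 and Grin2b lost theirs without 1 to 5 of the 6 libraries, E16.5 replicate 1 among them each time (highest adjusted p = 0.0602, 0.163, 0.0716 and 0.186), which left 1 cadherin called without that library. Without E13.5 replicate 3, 6 synaptic vesicle genes and 6 receptor genes were called.

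Guidance genes moved both ways. Of 29 tested, 2 rose, Sema3c and Robo2, and 2 fell, Robo3 and Dcc, with a median of 0.11 in p18mKO2+ and 0.57 in p18mKO2-. Sema3c, a secreted semaphorin, stood at 40.0, 40.5 and 31.4 CPM at E13.5 and at 120, 104 and 119 CPM at E16.5, and its groups were far apart (1.61 ± 0.22, adjusted p = 0.00227). Robo2, a receptor for Slit proteins, went from 212, 251 and 244 CPM to 537, 463 and 464 CPM without overlap (1.05 ± 0.19, adjusted p = 0.0123). Dcc, the netrin receptor gene, fell from 295, 229 and 291 CPM to 128, 151 and 128 CPM. Here the E13.5 libraries were all higher than the E16.5 libraries (-1.005 ± 0.18, adjusted p = 0.0114). In p18mKO2- the mean of Dcc was 140 CPM at E13.5 and 161 CPM at E16.5 (0.20 ± 0.18, adjusted p = 0.437), and the difference between the stage changes was called (-1.21 ± 0.25, adjusted p = 0.0213). Dcc and Robo2 lost their calls without E13.5 replicate 1 or E16.5 replicate 1, Dcc also without E16.5 replicate 3 (highest adjusted p = 0.0813 for Dcc and 0.0643 for Robo2), so that 2 guidance genes were called without either replicate 1.

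**Figure D2:**
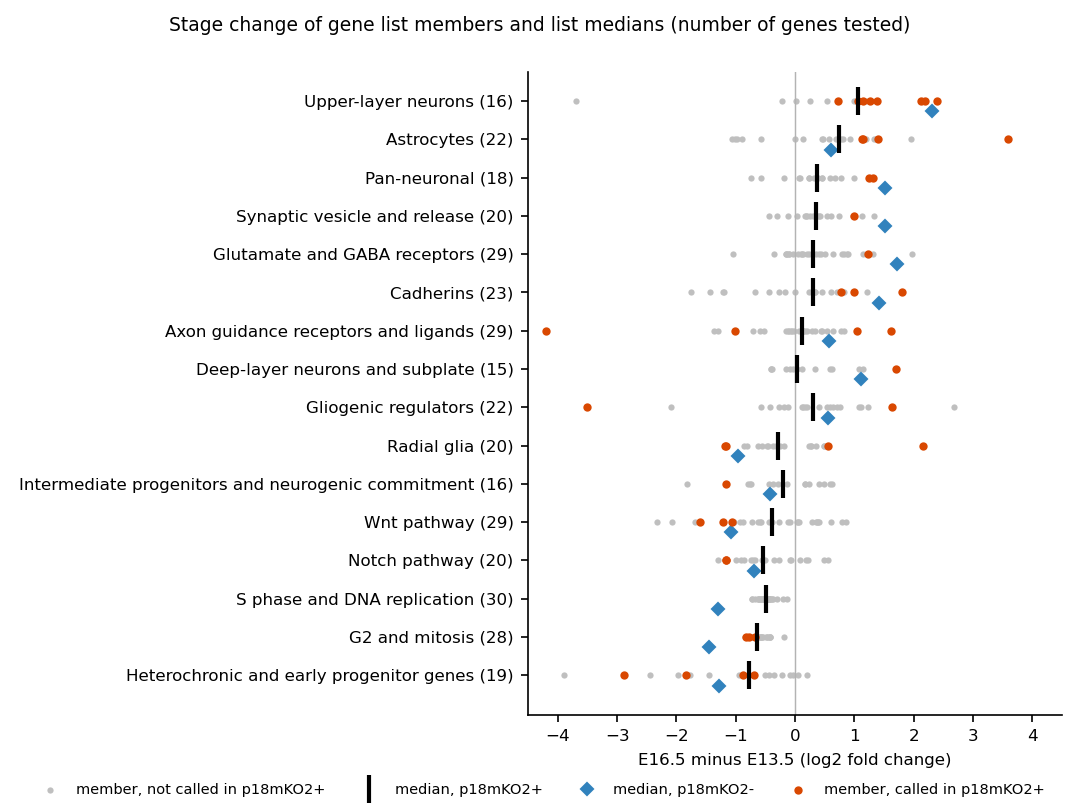
Log2 change from E13.5 to E16.5 of the members of 16 gene lists in p18mKO2+ (points, in color where called), with the list's median in p18mKO2+ (black bar) and in p18mKO2- (blue diamond) and the number of genes tested in brackets. The upper-layer median is 1.07 in p18mKO2+ and 2.31 in p18mKO2-, and the medians of S phase genes are -0.48 and -1.29. The astrocyte medians are 0.73 and 0.61.

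Of 22 astrocyte genes tested, 4 rose and 0 fell, and the list's median was 0.73 in p18mKO2+ and 0.61 in p18mKO2-. Slc6a11, a GABA transporter of astrocytes, stood at 11.0, 8.27 and 9.52 CPM at E13.5 and at 30.4, 21.6 and 23.9 CPM at E16.5. All E16.5 libraries were higher than all E13.5 libraries, and the call (1.40 ± 0.21, adjusted p = 0.00421) held without any 1 p18mKO2+ library. Aldh1l1, an enzyme of folate metabolism used as an astrocyte marker, had 16 CPM in E13.5 replicates 1 and 2, 10.9 CPM in replicate 3, and 30.3, 30.4 and 34.5 CPM at E16.5 (1.15 ± 0.22, adjusted p = 0.0178). Sparcl1, a secreted matricellular protein, had 46.2, 46.3 and 41.5 CPM at E13.5 and 106, 91.8 and 95.2 CPM at E16.5 (1.13 ± 0.20, adjusted p = 0.0113). The groups of both were apart by more than their own range. Gfap, the intermediate filament of mature astrocytes, was at 0.145, 0.0914 and 0.341 CPM at E13.5 and at 2.01, 2.43 and 2.81 CPM at E16.5. The counts of Gfap were low at both stages, with 13 over the E13.5 group, and the log2 change was 3.60 ± 0.76 (adjusted p = 0.0417). Without E16.5 replicate 1 or 3 the list had 1 or 2 members called, and 1 without both libraries of both sexes. Aldh1l1 lost its call without E16.5 replicate 1 or 3 (highest adjusted p = 0.0767), Sparcl1 without E16.5 replicate 1 (0.0509), and Gfap without any of the 5 libraries other than E13.5 replicate 3 (0.171). For 3 of the 22 genes the stage change was more negative in p18mKO2+ than in p18mKO2-, with Slc6a11 at -1.54 ± 0.30 (adjusted p = 0.0173).

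Regulators of glial fate and the oligodendrocyte list shared 1 gene that rose. Olig1, a basic helix-loop-helix factor of the oligodendrocyte lineage, stood at 5.62, 3.38 and 2.86 CPM at E13.5 and at 15.3, 9.92 and 11.5 CPM at E16.5. The groups did not overlap (1.63 ± 0.31, adjusted p = 0.0196), and the call was lost without E13.5 replicate 2 or E16.5 replicate 1 or 3 (highest adjusted p = 0.140). Of 22 gliogenic regulators 1 rose, Olig1, and 1 fell, Lhx9 (medians 0.30 in p18mKO2+ and 0.55 in p18mKO2-), and of 11 oligodendrocyte genes 1 rose (medians -0.21 and 0.71). In the list of gliogenic cytokines and the JAK-STAT pathway, 1 of 19 rose and 1 fell (medians -0.20 and -0.19). Cntfr encodes the receptor that binds ciliary neurotrophic factor. It fell from 80.5, 99.8 and 89.8 CPM to 46.0, 47.4 and 39.1 CPM with all E13.5 libraries higher, and kept its call without any 1 p18mKO2+ library (-1.03 ± 0.13, adjusted p = 0.00154). Without E13.5 replicate 2 or E16.5 replicate 1 or 3 the list had 1 member called.

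Radial glia genes moved in both directions. Of 20 tested, 2 rose, Tnc and Ptprz1, and 2 fell, Id4 and Hes5, with a median of -0.29 in p18mKO2+ and -0.96 in p18mKO2-. Tnc encodes tenascin-C, a matrix glycoprotein of late and outer radial glia and of astrocytes (ENSMUSG00000028364, GRCm38 chromosome 4, 63959785 to 64047015, minus strand). It went from 81.8, 75.4 and 43.5 CPM to 345, 285 and 261 CPM. Even the lowest E16.5 library was more than 3 times the highest E13.5 library (2.15 ± 0.21, adjusted p = 0.000349), and the change was smaller than in p18mKO2- by -1.86 ± 0.30 (adjusted p = 0.00572). Ptprz1, a receptor phosphatase of radial glia, went from 468, 423 and 399 CPM to 633, 636 and 619 CPM without overlap (0.55 ± 0.12, adjusted p = 0.0399). Id4, an inhibitor of basic helix-loop-helix factors, fell from 265, 312 and 288 CPM to 114, 153 and 113 CPM, also without overlap (-1.19 ± 0.14, adjusted p = 0.00128). The fall of Id4 was less deep than in p18mKO2-, with a difference of 1.48 ± 0.20 (adjusted p = 0.00181). Tnc and Id4 kept their calls without any 1 p18mKO2+ library, whereas Ptprz1 lost it without each of the 6 (highest adjusted p = 0.170). The list had 2 members called, not 4, without E13.5 replicate 2, E16.5 replicate 1 or E16.5 replicate 2.

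**Figure D3:**
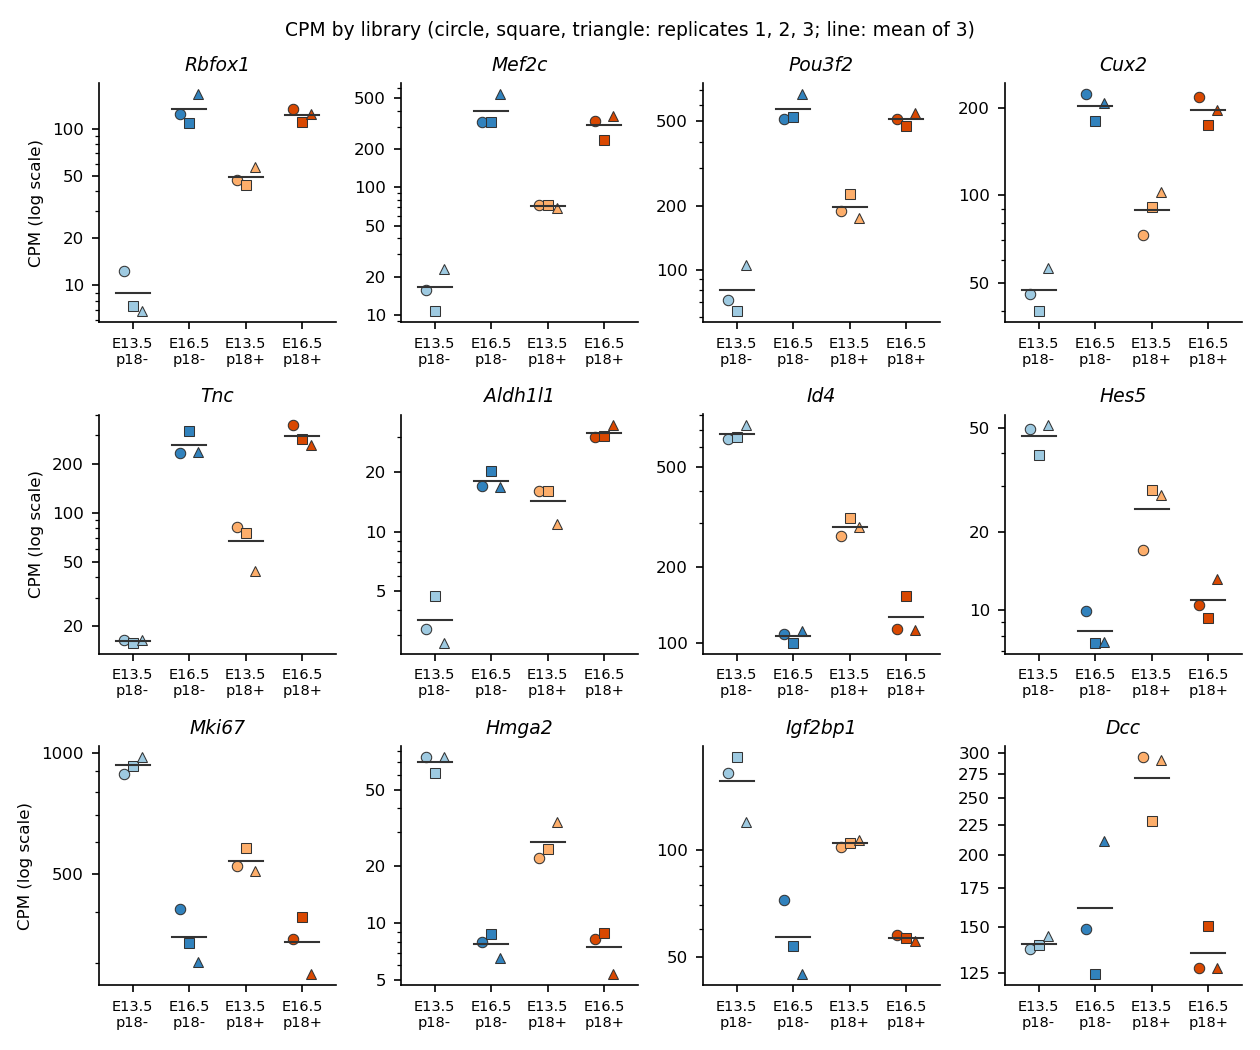
CPM on log axes of 12 genes in all 12 libraries, 3 per group, with the group mean as a line. Rbfox1, Mef2c, Pou3f2, Cux2, Tnc and Aldh1l1 are higher at E16.5 than at E13.5 and Id4, Hes5, Mki67, Hmga2 and Igf2bp1 lower, with the E13.5 p18mKO2+ mean between the p18mKO2- means. Dcc is highest in the 3 E13.5 p18mKO2+ libraries, at 229 to 295 CPM.

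Notch signalling genes that changed fell. Notch receptors are activated by Delta and Jagged ligands on neighbouring cells, and their cleaved intracellular part binds RBPJ on DNA and induces Hes and Hey genes, which hold radial glia undifferentiated. Of 20 genes of the pathway, 0 rose and 2 fell, with a median of -0.54 in p18mKO2+ and -0.69 in p18mKO2-. Among the ligands, Dll1, made by cells on the way to neurons, fell from 71.7, 71.0 and 80.2 CPM to 33.4, 36.6 and 29.3 CPM. The groups were far apart (-1.17 ± 0.17, adjusted p = 0.00399), and the call held without any 1 p18mKO2+ library. It was also the 1 gene called among 16 that mark intermediate progenitors and commitment to neurogenesis (medians -0.21 and -0.43), a list with 3 members called without E13.5 replicate 3. Among the targets, Hes5 went from 17.1, 28.9 and 27.7 CPM to 10.5, 9.32 and 13.2 CPM. All E13.5 libraries were higher, with replicate 1 closest to the E16.5 libraries (-1.16 ± 0.22, adjusted p = 0.0196). In p18mKO2- the change of Hes5 was -2.48 ± 0.23, and the difference was called (1.32 ± 0.32, adjusted p = 0.0412). Hes5 lost its call without E13.5 replicate 2 or E16.5 replicate 1 or 2 (highest adjusted p = 0.140), which left 1 Notch gene called. Without E13.5 replicate 3, 4 were called, 3 lower and 1 higher.

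The 250 bases before the start of Hes5 are shown because RBPJ, the DNA-binding partner of Notch, is known to act there. The sequence is from RefSeq, GRCm38.p6, chr4:154960673-154960922, plus strand, and capitals mark the core letters TGGGAA searched on both strands:
Hes5: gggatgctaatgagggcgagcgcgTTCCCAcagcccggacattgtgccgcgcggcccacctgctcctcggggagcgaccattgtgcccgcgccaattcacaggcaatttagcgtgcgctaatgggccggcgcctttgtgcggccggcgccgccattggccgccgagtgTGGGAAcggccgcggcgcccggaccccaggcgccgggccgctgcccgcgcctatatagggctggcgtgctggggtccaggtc
The letters were found 2 times, 82 and 226 bases before the start, the farther one on the opposite strand, and the sites do not overlap each other. They are in 23.7% of the windows of the 11494 tested genes that matched a promoter by symbol and in 21.6% of all 32851 promoters of this length in the table, so a match is common and describes the letters only.

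Most cell cycle genes missed the threshold, with values below 0. All 28 genes of G2 and mitosis had a log2 change below 0, with a median of -0.64 in p18mKO2+ and -1.45 in p18mKO2-. In p18mKO2+ 3 of them fell, Kif20b, Nusap1 and Mki67, and in p18mKO2- all 28. Mki67 encodes the Ki-67 protein of dividing cells (ENSMUSG00000031004, chromosome 7, 135689784 to 135716361, minus strand). It had 523, 580 and 508 CPM at E13.5 and 343, 389 and 281 CPM at E16.5, so every E13.5 library was above every E16.5 library (-0.67 ± 0.15, adjusted p = 0.0438). Nusap1, a spindle protein, had 118, 133 and 92.8 CPM at E13.5 and 63.0, 77.5 and 53.9 CPM at E16.5 (-0.82 ± 0.18, adjusted p = 0.0430). Kif20b, a kinesin of cytokinesis, had 43.3, 49.9 and 40.1 CPM at E13.5 and 24.8, 29.8 and 23.1 CPM at E16.5 (-0.78 ± 0.16, adjusted p = 0.0244). The groups did not overlap for either gene. These calls were fragile and varied with the setting. The list had 0 members called without E13.5 replicate 1 or 2 or E16.5 replicate 1 or 3. It had 1 without E16.5 replicate 2 and 0 with the ribosomal RNA gene covariate. In other settings it had 4 without E13.5 replicate 3, 6 with limma-voom, 12 with DESeq2 and 16 with no filter on low counts. At an unadjusted edgeR p under 0.05, 23 of the 28 were lower and 0 higher. Mki67 lost its call without each of the 6 libraries (highest adjusted p = 0.233).

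The 250 bases before the start of Mki67 are shown because promoters of G2 and mitosis genes are known for 2 short elements, the CCAAT box bound by NF-Y and the cell cycle genes homology region (CHR) bound by the DREAM complex, through which retinoblastoma-family proteins repress them. The sequence is from RefSeq, GRCm38.p6, chr7:135716380-135716629, minus strand, and capitals mark CCAAT and TTTGAA on either strand:
Mki67: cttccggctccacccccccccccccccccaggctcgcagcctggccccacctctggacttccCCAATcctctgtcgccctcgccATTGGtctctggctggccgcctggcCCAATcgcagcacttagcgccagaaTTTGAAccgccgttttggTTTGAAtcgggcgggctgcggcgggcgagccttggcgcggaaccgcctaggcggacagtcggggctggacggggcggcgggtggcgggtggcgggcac
The window held CCAAT 3 times, 188, 166 and 141 bases before the start, and TTTGAA 2 times, at 116 and 98, with no overlap. Of the 24 list members that matched a promoter by symbol, 20 (83.3%) held CCAAT and 9 (37.5%) held TTTGAA. Among the 11494 tested genes with a match the shares were 40.4% and 12.7%, and among all 32851 promoters 33.8% and 16%. Of the 73 genes called lower in p18mKO2+ that matched, 43.8% held CCAAT and 19.2% held TTTGAA. Among the 121 genes called higher these shares were 36.4% and 10.7%.

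No gene of S phase was called. All 30 had a log2 change below 0, with a median of -0.48 in p18mKO2+ against -1.29 in p18mKO2-, where all 30 fell. In p18mKO2+ edgeR called 0, with 19 lower at an unadjusted p under 0.05, while DESeq2 called 3 and limma-voom 1. Rfc4, a subunit of the clamp loader, was at 35.4, 37.2 and 34.3 CPM at E13.5 and at 19.1, 19.9 and 25.8 CPM at E16.5. Tyms, the thymidylate synthase gene, was at 51.0, 58.6 and 42.8 CPM at E13.5 and at 31.3, 31.6 and 32.9 CPM at E16.5. Neither overlapped between stages, and neither was called (-0.72 ± 0.18, adjusted p = 0.0571, and -0.67 ± 0.17, adjusted p = 0.0627). The difference from the stage change in p18mKO2- was called for 1 S phase gene and for 2 genes of G2 and mitosis, all more positive in p18mKO2+ (25 and 26 at an unadjusted p under 0.05). Summed over the 30 genes, S phase transcripts lay between 1815 and 2575 CPM at E13.5 and between 1562 and 1628 CPM at E16.5 in p18mKO2+, and between 3699 and 4203 CPM at E13.5 in p18mKO2-.

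Some genes of early cortical progenitors fell. Of 19 in the list of heterochronic genes, whose products set early developmental timing, 0 rose and 4 fell, with a median of -0.77 in p18mKO2+ and -1.28 in p18mKO2-. The 4 were Hmga2, Igf2bp1, Igf2bp2 and Crabp2. Hmga2, an architectural chromatin protein of early neural stem cells (ENSMUSG00000056758, chromosome 10, 120361275 to 120476469, minus strand), stood at 21.9, 24.4 and 34.0 CPM at E13.5 and at 8.21, 8.83 and 5.39 CPM at E16.5. Every E13.5 library was more than 2 times the highest E16.5 library, and the call held without any 1 p18mKO2+ library (-1.84 ± 0.22, adjusted p = 0.00128). The fall was deeper in p18mKO2- (-3.17 ± 0.23), with a difference of 1.33 ± 0.31 (adjusted p = 0.0368). Igf2bp1, an RNA-binding protein of early progenitors, had tight values of 102, 105 and 107 CPM at E13.5 and 57.7, 56.6 and 55.6 CPM at E16.5 (-0.88 ± 0.18, adjusted p = 0.0263). Its relative Igf2bp2 went from 80.3, 101 and 103 CPM to 57.4, 66.1 and 52.1 CPM (-0.70 ± 0.15, adjusted p = 0.0400). Neither overlapped between stages, yet both lost their calls without each of the 6 libraries (highest adjusted p = 0.149 and 0.190). The list had 2 members called without E13.5 replicate 1, E13.5 replicate 2 or E16.5 replicate 2 and 1 without E16.5 replicate 1 or 3.

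Wnt pathway genes that changed fell as well. In canonical Wnt signalling, beta-catenin joins TCF and LEF factors on DNA, and the cortical hem is a source of Wnt ligands for the neighbouring cortex. Of 29 genes tested, 0 rose and 3 fell, with a median of -0.40 in p18mKO2+ and -1.08 in p18mKO2-. Lef1 stood at 23.4, 21.99 and 38.0 CPM at E13.5 and at 7.2, 12.1 and 8.25 CPM at E16.5 (-1.60 ± 0.35, adjusted p = 0.0396). Tcf7l1, which mostly represses Wnt targets, went from 34.2, 36.2 and 25.6 CPM to 11.7, 15.7 and 14.0 CPM (-1.21 ± 0.26, adjusted p = 0.0342). Nkd1, an inhibitor induced by Wnt signalling, went from 31.7, 32.6 and 30.3 CPM to 14.2, 20.98 and 10.2 CPM (-1.06 ± 0.22, adjusted p = 0.0332). The groups of all 3 were apart, but each lost its call without 4 or more of the 6 libraries (highest adjusted p = 0.190, 0.186 and 0.178). Of the 29 genes of the list, 0 were called without E13.5 replicate 1 or E16.5 replicate 1 or 3. The list had 1 member called without E13.5 replicate 2, which was none of these 3 genes, and 1 without E16.5 replicate 2.

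The deepest falls included those of the embryonic globin genes Hbb-y and Hba-x. Embryonic globins are made by primitive red cells, which definitive cells from the fetal liver replace during these days. Hbb-y encodes an embryonic beta-like globin (ENSMUSG00000052187, chromosome 7, 103851749 to 103853216, minus strand) and stood at 92.0, 62.9 and 277 CPM at E13.5 and at 0.956, 2.18 and 1.43 CPM at E16.5. The E13.5 libraries were all far above the E16.5 libraries, replicate 3 most of all (-6.56 ± 0.59, adjusted p = 0.000243). Hba-x, the embryonic alpha-like globin gene, followed with 25.5, 20.1 and 75.7 CPM and then 0.906, 2.13 and 2.72 CPM (-4.39 ± 0.49, adjusted p = 0.00122). Both kept their calls without any 1 p18mKO2+ library. Hbb-bh1, another embryonic beta-like globin gene, had 0, 1.10 and 4.82 CPM at E13.5 and 0, 0.149 and 0 CPM at E16.5 (137 and 3 counts over the groups) and was not called (adjusted p = 0.110). Of 10 erythroid genes tested 2 fell and 0 rose (medians -0.29 in p18mKO2+ and -0.47 in p18mKO2-), while the level summed over all 14 genes of the list was 1343 to 1945 CPM at E13.5 and 1396 to 1873 CPM at E16.5. The adult alpha globin gene Hba-a1 had medians of 364 and 385 CPM. In p18mKO2- the mean of Hbb-y was 546 CPM at E13.5 and 1.34 CPM at E16.5, a log2 change of -8.69 ± 0.64 (difference 2.13 ± 0.80, adjusted p = 0.187, not called).

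The 250 bases before the start of Hbb-y are shown for the CACCC and CCAAT boxes, which beta-like globin promoters are known to carry and which erythroid KLF factors and NF-Y bind. The sequence is from RefSeq, GRCm38.p6, chr7:103853208-103853457, minus strand, and capitals mark CACCC and CCAAT on either strand:
Hbb-y: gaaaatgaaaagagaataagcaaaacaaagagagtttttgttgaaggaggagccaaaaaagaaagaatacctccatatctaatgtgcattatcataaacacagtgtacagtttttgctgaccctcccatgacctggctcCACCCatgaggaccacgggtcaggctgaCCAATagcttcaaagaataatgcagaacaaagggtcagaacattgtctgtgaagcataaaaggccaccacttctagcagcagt
The window held CACCC 1 time, 111 bases before the start, and CCAAT 1 time, at 83, with no overlap. CACCC is in 52.0% and CCAAT in 33.8% of all 32851 promoters.

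E13.5 replicate 3 was the highest library of its group for 11 of the 12 largest decreases and the lowest for the remaining gene, Hist1h2ag (3.30, 3.61 and 1.19 CPM), a histone gene with near-identical copies whose values are uncertain. Robo3, a guidance receptor of commissural and hindbrain neurons, stood at 6.21, 4.94 and 21.3 CPM at E13.5 and at 0.503, 0.843 and 0.415 CPM at E16.5 (-4.20 ± 0.57, adjusted p = 0.00207). All E13.5 libraries were higher, and the call held without any 1 p18mKO2+ library. Lhx9, a LIM homeobox gene of the caudal and medial forebrain, had 41.4, 25.2 and 110 CPM at E13.5 and 2.87, 10.9 and 1.84 CPM at E16.5 (-3.51 ± 0.74, adjusted p = 0.0337). Ebf3, a transcription factor of Cajal-Retzius and hem-derived cells, had 18.7, 5.94 and 190 CPM at E13.5 and 3.27, 5.70 and 2.99 CPM at E16.5. Replicate 3 was far above the other E13.5 libraries, and the lowest E13.5 library barely exceeded the highest at E16.5. The log2 change of Ebf3 was -4.17 ± 0.93 (adjusted p = 0.0422) and -1.59 without E13.5 replicate 3, where it was no longer called (adjusted p = 0.0916). Nhlh2, a basic helix-loop-helix factor of Cajal-Retzius neurons, went from 41.2, 21.8 and 42.9 CPM to 7.80, 14.2 and 3.96 CPM (-2.03 ± 0.38, adjusted p = 0.0161). Crabp2, which binds retinoic acid, went from 3.78, 5.62 and 14.5 CPM to 0.805, 1.88 and 0.553 CPM (-2.88 ± 0.54, adjusted p = 0.0171). For both, the E13.5 libraries were all above the E16.5 libraries. Without E13.5 replicate 3 Lhx9 lost its call as well (log2 change -2.66, adjusted p = 0.0656), and Nhlh2 and Crabp2 kept theirs. Nhlh2, Crabp2, Lhx9 and Ebf3 each lost their calls without E16.5 replicate 1 and 1 to 3 other libraries (highest adjusted p = 0.109, 0.120, 0.178 and 0.186).

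**Figure D4:**
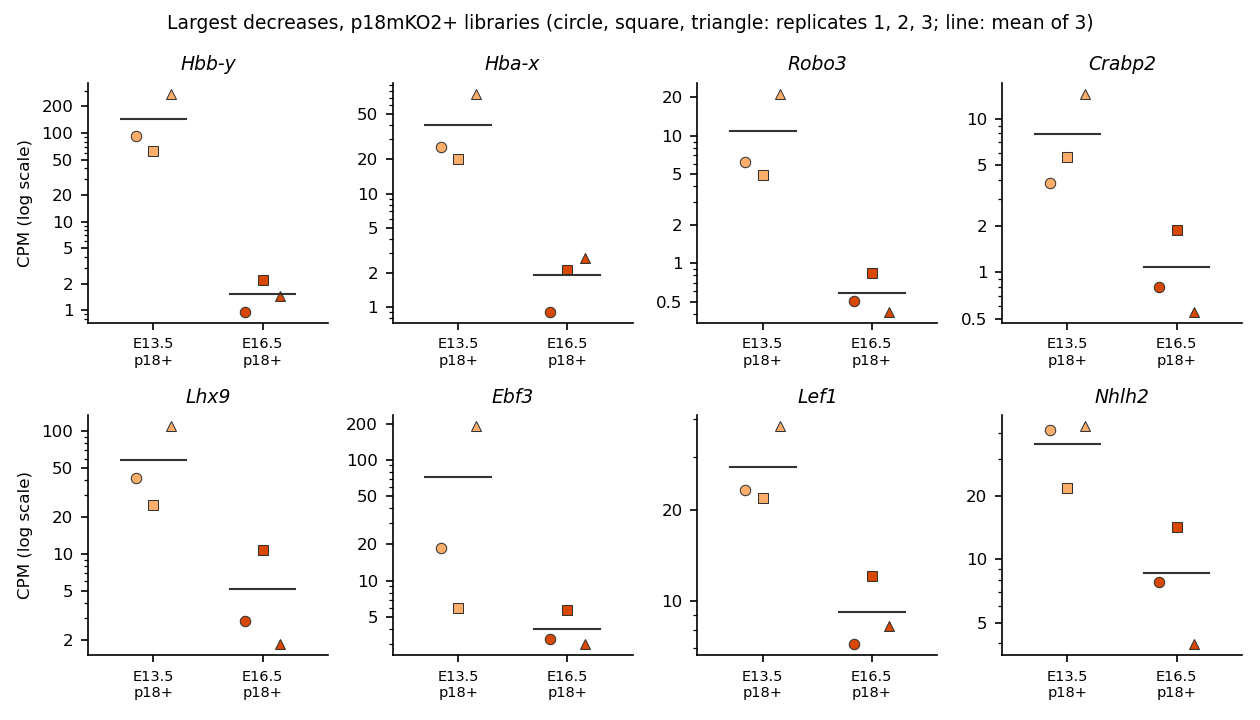
CPM on log axes of 8 genes among those with the largest decreases, in the 3 E13.5 and 3 E16.5 p18mKO2+ libraries, with the group mean as a line. E13.5 replicate 3 (triangle) is the highest library for every gene shown, at 277 CPM for Hbb-y and 190 CPM for Ebf3.

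Ebf3 and Nhlh2 were the 2 of 20 genes of Cajal-Retzius cells, hem and choroid plexus that fell, and 0 rose (medians -0.73 in p18mKO2+ and -1.68 in p18mKO2-). The list had 4 members called without E13.5 replicate 2, 0 without E16.5 replicate 1 and 1 without any other p18mKO2+ library. Summed over this list, the levels overlapped between the stages, at 674 to 848 CPM at E13.5 and 446 to 1760 CPM at E16.5, and the choroid plexus gene Ttr was lowest in E13.5 replicate 3 (16.1 CPM) and highest in E16.5 replicate 2 (1376 CPM). Lhx1, a LIM homeobox gene of Cajal-Retzius neurons, stood at 2.67, 0.869 and 36.6 CPM at E13.5 and was not called (adjusted p = 0.0550). Their part in the falls above was not tested. Of 14 genes of meninges and fibroblasts 1 fell, Crabp2, and the summed level was 189.5 to 283 CPM at E13.5 and 116 to 279 CPM at E16.5 (medians -0.72 and -0.90).

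Among the largest increases were a pericyte gene, matrix genes and neuronal signalling genes. Higd1b, a mitochondrial protein gene enriched in pericytes, was near 0 at E13.5 (4 counts over 3 libraries) and stood at 2.47, 2.08 and 3.32 CPM at E16.5. Its log2 change of 5.31 ± 0.91 (adjusted p = 0.0100) lost its call without E16.5 replicate 1 (adjusted p = 0.0509). It was the 1 of 21 endothelial and pericyte genes called (medians 0.45 in p18mKO2+ and 0.54 in p18mKO2-). At an unadjusted edgeR p under 0.05, 8 of the 21 were higher and 0 lower, where 14.8% of all genes tested passed in either direction. The vessel markers Pecam1, Cldn5 and Rgs5 had medians of 17.9, 17.6 and 65.9 CPM at E13.5. At E16.5 these were 17.7, 25.2 and 103 CPM, and none of these markers was called. Adamts2, which trims procollagens, went from 1.02, 1.23 and 2.09 CPM to 18.6, 12.1 and 13.3 CPM (3.33 ± 0.41, adjusted p = 0.00128). Ccbe1, a secreted collagen-domain protein, went from 4.17, 3.02 and 1.54 CPM to 28.9, 20.7 and 36.5 CPM (3.31 ± 0.46, adjusted p = 0.00245). The E16.5 libraries of both were all several times above the E13.5 libraries. Ntsr1 encodes a neurotensin receptor of corticothalamic neurons (ENSMUSG00000027568, chromosome 2, 180499976 to 180544980, plus strand) and was among the genes with the smallest p. It stood at 6.06, 6.58 and 5.76 CPM at E13.5 and at 40.0, 27.7 and 53.7 CPM at E16.5. Its E13.5 libraries were tight and the E16.5 libraries spread but all much higher (2.72 ± 0.24, adjusted p = 0.000243). The calcium-binding protein genes Caln1 and Necab1 rose by log2 changes of 2.98 ± 0.44 and 2.80 ± 0.44, Cacng5, an auxiliary subunit of AMPA receptors, by 2.65 ± 0.33, and Usp43, a ubiquitin-specific protease gene, by 2.54 ± 0.42. Adcy1, a calcium-stimulated adenylyl cyclase, and Clstn2, a synaptic adhesion protein, were among the smallest p (1.87 ± 0.17 and 1.79 ± 0.17, adjusted p = 0.000262 and 0.000269). These genes from Adamts2 on kept their calls without any 1 p18mKO2+ library. Jakmip3 (3.27 ± 0.76) and Slco1c1, a thyroid hormone transporter (2.44 ± 0.54), lost theirs without 5 and 6 of the 6 (highest adjusted p = 0.165 and 0.147).

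Further genes among the largest decreases were Hist1h2ag, Stk33 and Asb4, at log2 changes of -2.45 ± 0.56, -2.07 ± 0.38 and -2.06 ± 0.45 (adjusted p = 0.0441, 0.0161 and 0.0398). Hist1h2ag is a replication-dependent histone gene with near-identical copies that lacks a poly(A) tail as a rule, so its value is uncertain. Each lost its call without 4 or 5 of the 6 p18mKO2+ libraries (highest adjusted p = 0.185, 0.0816 and 0.191).

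The 6 genes called in p18mKO2+ and not in p18mKO2- were Ebf3, Ikzf1, Adora2a, Phip, Vat1 and Dcc, of which Adora2a, Phip and Vat1 are named after their values were seen. Ikzf1, a zinc finger factor of blood cells and of early cortical progenitors and striatal neurons, had 4.61, 2.51 and 2.43 CPM at E13.5 and 20.5, 29.8 and 9.67 CPM at E16.5. The groups were apart, with E16.5 replicate 3 the lowest of its group (2.65 ± 0.59, adjusted p = 0.0422, lost without 5 of the 6 libraries, highest adjusted p = 0.149). In p18mKO2- its mean was 2.80 and 2.65 CPM, and the difference of the stage change, 2.73 ± 0.82, was not called (adjusted p = 0.0984). Adora2a, an adenosine receptor of striatal neurons, had a log2 change of 1.32 in p18mKO2+ and 0.55 in p18mKO2-. Phip and Vat1 had log2 changes of -0.66 and -0.69 in p18mKO2+ and -0.21 and -0.04 in p18mKO2-. The difference was called for Dcc alone among these 6 genes, so the other 5 are not shown to differ between the comparisons.

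Several genes with the largest differences between the stage changes were higher at E13.5 in p18mKO2+ than in p18mKO2-. Dync1i1, a neuronal dynein subunit, had 20.7, 19.8 and 15.1 CPM at E13.5 and 100, 70.7 and 123 CPM at E16.5 in p18mKO2+ (2.40 ± 0.30), against means of 1.29 and 128 CPM in p18mKO2-. Its groups did not overlap, and its difference was -4.24 ± 0.46 (adjusted p = 0.000568). Rgs6, a regulator of G protein signalling, stood at 18.2, 14.8 and 17.2 CPM at E13.5 and at 47.9, 36.1 and 39.5 CPM at E16.5, against means of 0.764 and 43.6 CPM in p18mKO2- (difference -4.54 ± 0.64, adjusted p = 0.00241). Mc4r, a melanocortin receptor, was level in p18mKO2+ at 23.6, 16.502 and 9.09 CPM and then 16.2, 11.0 and 19.9 CPM, with groups that overlapped. In p18mKO2- its mean went from 0.817 to 24.2 CPM, and the difference was -4.96 ± 0.68 (adjusted p = 0.00218). In the other direction, P3h2, a collagen prolyl hydroxylase, was low in p18mKO2+ at both stages (2.42, 2.01 and 1.32 CPM, then 0.856, 2.28 and 1.66 CPM). In p18mKO2- its mean went from 16.49 to 1.01 CPM, a difference of 3.77 ± 0.71 (adjusted p = 0.0146). Fndc3c1 fell in p18mKO2+ from 3.78, 2.47 and 2.09 CPM to 0.302, 0.546 and 0.369 CPM without overlap (-2.76 ± 0.37, adjusted p = 0.00207) and fell further in p18mKO2- (difference 2.86 ± 0.54, adjusted p = 0.0144).

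Of 20 hypoxia and glycolysis genes 1 rose, Slc2a3, a neuronal glucose transporter (0.77 ± 0.17, adjusted p = 0.0427, lost without 5 of the 6 libraries, highest adjusted p = 0.175), with medians of -0.21 in p18mKO2+ and -0.77 in p18mKO2-. In 17 lists edgeR called 0 of 418 memberships, with 77 at an unadjusted p under 0.05, while DESeq2 called 28 and limma-voom 10. Over all 16798 genes tested, 2486 (14.8%) had an unadjusted p under 0.05, while DESeq2 called 848 and limma-voom 405. The sums over the 17 lists are therefore not read as a result about them. The list medians in p18mKO2+ and p18mKO2- were -0.44 and -1.01 for regulators of G1, 0.03 and -0.01 for CDK inhibitors, 0.18 and -0.10 for BMP signalling, 0.11 and 0.70 for FGF and ERK response genes, and -0.20 and -0.45 for Polycomb and chromatin regulators. They were -0.43 and -1.02 for GABAergic and ventral telencephalon genes, -0.24 and -0.98 for collagens and laminins, 0.33 and 0.28 for microglia, and -0.08 and -0.19 for p53 targets. Among the CDK inhibitors, Cdkn1c stood at 89.9, 86.1 and 145 CPM at E13.5 and at 47.3, 53.1 and 49.7 CPM at E16.5. Its groups did not overlap, but it was not called (-1.10 ± 0.30, adjusted p = 0.0800). Cdkn1b, which encodes p27, was at 190.1, 224 and 134 CPM at E13.5 and at 231, 240 and 262 CPM at E16.5 (0.42 ± 0.18, adjusted p = 0.282). Imprinted genes had medians of -0.51 and -0.32, cholesterol synthesis -0.06 and -0.02, immediate early and heat shock genes -0.12 and -0.12, interferon response genes -0.55 and -0.27, ribosomal proteins -0.06 and -0.25, the nuclear-encoded respiratory chain -0.07 and -0.15, and mitochondrially encoded mRNAs -0.003 and 0.37.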

How the data were processed

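RNA of the ventricular zone was sequenced in 12 libraries, 3 for each stage and genotype. Per the submitters' processing notes, cutadapt 3.4, STAR 2.7.2b and RSEM 1.2.31 were used with GRCm38. The strand setting and annotation release were not given in the sources used here, so overlapping and antisense genes may share reads. Per the file headers, the authors deposited RSEM expected counts and TPM for each gene.

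Expected counts were rounded to whole numbers. Genes were kept with filterByExpr (16798 of 55487), scaled with TMM and fitted with edgeR 4.0.16 (R 4.3.3) by the quasi-likelihood test over all 12 libraries with 4 group means and 8 residual degrees of freedom, so the groups share 1 estimate of the spread. Stage changes in p18mKO2+ and p18mKO2- and their difference were tested, with Benjamini-Hochberg adjustment over all genes and a threshold of 0.05. SE are of log2 changes. CPM use TMM-scaled library sizes, and deposited TPM were used for Cdkn2c and for choosing genes.

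The genes named are Cdkn2c, the 12 largest called increases and 12 largest decreases with stages apart in every library and a mean TPM of 5 or more in the higher stage, the 6 smallest p, the 6 largest called differences in each direction, and up to 4 members of smallest p in each of 39 gene lists. Genes without a symbol, predicted, mitochondrial, Y-linked and Xist genes were left out of the ranked parts. The members and lists were chosen with earlier results of these data known. Genes were matched to GENCODE M21, and promoters are from RefSeq GRCm38.p6.

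The comparisons were repeated with DESeq2 1.42.0, with limma-voom (limma 3.58.1), with RLE in place of TMM, without a filter, with a minimum mean CPM of 5, with a replicate block, with the compared libraries alone, with a Y-linked covariate and without each library in turn. Leaving out both libraries of both sexes and a ribosomal RNA gene covariate were added after seeing the data. The fits were tested on simulated data. Some genes are not reported here.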

Additional observations from a re-analysis of the deposited data

Results flagged for a closer look

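The genes below had a stage change that differed between p18mKO2+ and p18mKO2- by the test of the difference itself (the interaction term of edgeR's quasi-likelihood fit, adjusted over all 16798 genes). Values are log2 differences, the change from E13.5 to E16.5 in p18mKO2+ minus that in p18mKO2-.

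Genes that rose in p18mKO2+ rose by less than in p18mKO2-. The differences were Necab1 -2.83, Ntsr1 -2.03, Cacng5 -2.27, Adcy1 -2.17, Clstn2 -2.79, Tnc -1.86, Inhba -6.34, Dync1i1 -4.24, Ptprz1 -0.69 and Rbfox1 -2.60. For further genes that rose they were Mapt -1.66, Mef2c -2.47, Pou3f2 -1.45, Cux2 -0.96, Hs3st4 -4.10, Slc6a11 -1.54, Robo2 -1.53, Cplx1 -1.83, Grin2b -2.76, Cdh12 -4.15 and Cdh8 -1.07. The adjusted p ranged over 0.000206 to 0.0467. Inhba rested on 3 counts over the E13.5 p18mKO2- libraries, so the size of its difference depends on the prior count.

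Genes that fell in p18mKO2+ and fell by less than in p18mKO2- gave differences of Hmga2 1.33, Fndc3c1 2.86, Id4 1.48, Hes5 1.32, Cntfr 0.93 and Tcf7l1 1.52 (adjusted p 0.00181 to 0.0412). Dcc, the netrin receptor gene, fell in p18mKO2+ and did not pass the test in p18mKO2-, with a difference of -1.21 (adjusted p = 0.0213).

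Genes whose stage change was not called in p18mKO2+ also differed. More negative in p18mKO2+ were Mc4r -4.96, Rgs6 -4.54, Dcx -1.53, Tle4 -0.97, Etv1 -0.95, Zeb2 -1.27, Jak2 -0.87, Gpr17 -4.83, Gria1 -1.25 and Rgs5 -1.20 (adjusted p 0.00218 to 0.0486). More positive were P3h2 3.77, Hif3a 2.16, Slc43a1 1.96, Xrcc3 1.84, AW047730 1.77, Kif23 0.90 and Suz12 0.81 (adjusted p 0.00676 to 0.0448). Gpr17 had 3 counts over the E13.5 p18mKO2- libraries, so its size too depends on the prior count. Scrg1 had a fitted difference of -7.03, but the E13.5 p18mKO2- libraries held 0 counts of it, so this value depends on the prior count and is no bound. Hist2h2aa1, at -6.43, is a histone gene with near-identical copies and 6 counts over the E13.5 p18mKO2- libraries, and its value is uncertain.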

How the results depend on the processing

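The 63 called genes that the naming rule chose kept their direction in each of 16 alternatives that tested them, and 24 stayed called in each. These alternatives did not include leaving out 1 p18mKO2- library at a time. The genes named after their values were seen were not followed through these alternatives. With the ribosomal RNA gene covariate, also chosen after seeing the data, 19 of the 63 lost their calls. The number of genes called in p18mKO2+, 275, was 848 with DESeq2, 970 with no filter on low counts and 622 in a fit of the p18mKO2+ libraries alone. It was 150 with the summed level of 4 Y-linked genes as a covariate and, in an alternative chosen after seeing the data, 116 without both libraries that held transcripts of both sexes. Leaving out 1 p18mKO2+ library at a time gave 76 (without E16.5 replicate 1) to 366 (without E13.5 replicate 3). Leaving out 1 p18mKO2- library at a time gave 199 (without E16.5 replicate 2) to 573 (without E16.5 replicate 3). The difference between the stage changes, called for 453 genes, was called for 1122 with DESeq2, 1168 with no filter, 295 with the Y-linked covariate and 149 without both libraries of both sexes. Without 1 library of any group it was called for 124 (without E16.5 p18mKO2+ replicate 2) to 525 (without E13.5 p18mKO2+ replicate 2). The causes were not tested. The 5005 genes called in p18mKO2- stayed within 1.5 times in every alternative run.

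With the replicate number as a block, 547 genes were called in p18mKO2+ and 767 for the difference. Whether the numbers pair the libraries was checked only between the stages within a genotype. Same-numbered p18mKO2+ libraries had correlations of their deviations from the group means of 0.03, -0.07 and -0.0006 across genes. For same-numbered p18mKO2- libraries these were 0.02, 0.10 and 0.20, and not every library correlated best with its own number. Same-numbered p18mKO2+ and p18mKO2- libraries of the same stage were not compared, so pairing between the genotypes was not tested. In simulated data of this design, 100 genes were changed 2-fold and 100 genes 4-fold, with all others level. The test recovered 37% and 66% of them in p18mKO2+, and 6.36% of its calls were false. For the difference of the stage changes it recovered 12% and 55%, with 2.9% of calls false. Changes of that size may thus be missed. The adjusted threshold depends on how many genes change, so these shares need not hold for the real data.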
